A study of Mus musculus with 23 samples.

Results

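Transthyretin (Ttr), the thyroid hormone and retinol carrier that choroid plexus epithelium secretes into the cerebrospinal fluid, was above 100 RPKM in 3 of the 11 cortex libraries of a series of 23 libraries and far lower in the other 8. These 3 Ttr-rich libraries were picked by that threshold. Ttr stood at 705 RPKM in nontransgenic (NTg) mouse 6322, at 375 in NTg 6326 and at 725 in F08 mouse 6320. RPKM is the authors' unit, reads scaled to gene length and library size, so levels can be compared between genes. The other 8 libraries held a lowest value of 1.20 RPKM, a median of 6.38 and a highest of 16.6 in F08 6321, so the members just inside and just outside the threshold stood at 375 and 16.6 RPKM. Since Ttr in this table chose the libraries, every cortex difference between the 3 and the 8 is given as a description, with no test.

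RNA of cortex and of lumbar cord was sequenced from 6-month-old C57BL/6 mice of 3 genotypes. NTg mice carried no transgene, F08 mice an unexpanded human C9orf72 gene on a bacterial artificial chromosome, and F112 mice the repeat-expanded form; each transgene was a single line. Cortex libraries numbered 4 for NTg, 4 for F08 and 3 for F112, of which 2, 1 and 0 were Ttr-rich. The 3 Ttr-rich mice, like the rest, also had a spinal cord library, and nothing in the labels gives sex. Xist, the RNA that coats the inactive X chromosome, was above 20 RPKM in 6 cortex libraries, of the Ttr-rich ones only in NTg 6322 (32.2 RPKM, against 0.0428 in NTg 6326 and 0.495 in F08 6320). Alignments ranged from 9810780 to 14715900 in the Ttr-rich libraries and from 9398450 to 14257300 in the others. The mouse C9orf72 orthologue 3110043O21Rik stood at 3.05 RPKM in NTg 6322, 3.44 in NTg 6326 and 6.54 in F08 6320, each near the other libraries of its genotype. Markers of cortical projection neurons were high in all 11 libraries, with a summed level between 520 and 530 RPKM in the Ttr-rich ones and between 391 and 596 in the others.

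The choroid plexus is a folded sheet of epithelium and vessels inside the brain ventricles that makes cerebrospinal fluid. Its epithelial cells carry ion channels, bicarbonate and folate transporters on their surface, are joined by claudins, and secrete carrier proteins and growth factor regulators. Neurons and glia of the cortex make little or no Ttr, and a cortical dissection borders the lateral ventricle, the striatum and the hippocampus.

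Folr1, Kcne2, Kl, Enpp2 and other choroid plexus genes were higher in all 3 Ttr-rich libraries than in any other cortex library. Of 13865 genes that averaged 0.5 RPKM or more, 59 (0.426%) were higher in all 3 Ttr-rich libraries than in any of the other 8, and 56 (0.404%) were lower than in any. The 59 held Ttr and 19 of the 51 choroid plexus genes kept from 4 lists with 60 names. Among the 19 genes that were both above every other library and at least 2-fold higher by medians (0.137% of all), 17 were Ttr or choroid list genes, and the other 2 were Mfrp and Rdh5. Ttr is in these counts because it defined the classes. Of the 51 choroid genes 15 averaged under 0.5 RPKM in the 8 others, so they were kept only through the Ttr-rich libraries and had to differ; 9 of them were among the 19 choroid genes above every other library. Of the 36 choroid genes kept also by the 8 others alone, 10 were above every other library. Of the 19 genes that passed both marks, 9 averaged under 0.5 RPKM in the 8 others. Those 9, with Mfrp among them, were likewise kept only through the Ttr-rich libraries and had to differ. No gene was below every other library and at least 2-fold lower. Of the 51 choroid genes 45 had a ratio above 0, with a median of 0.86 on the log2 scale, where all genes had a median of -0.03. Ratios here and below are of medians of the 3 over the 8, on log2(RPKM + 0.5), which understates the difference of genes under about 1 RPKM. In bulk tissue, more cells of a type and more RNA per cell cannot be told apart.

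**Figure D1:**
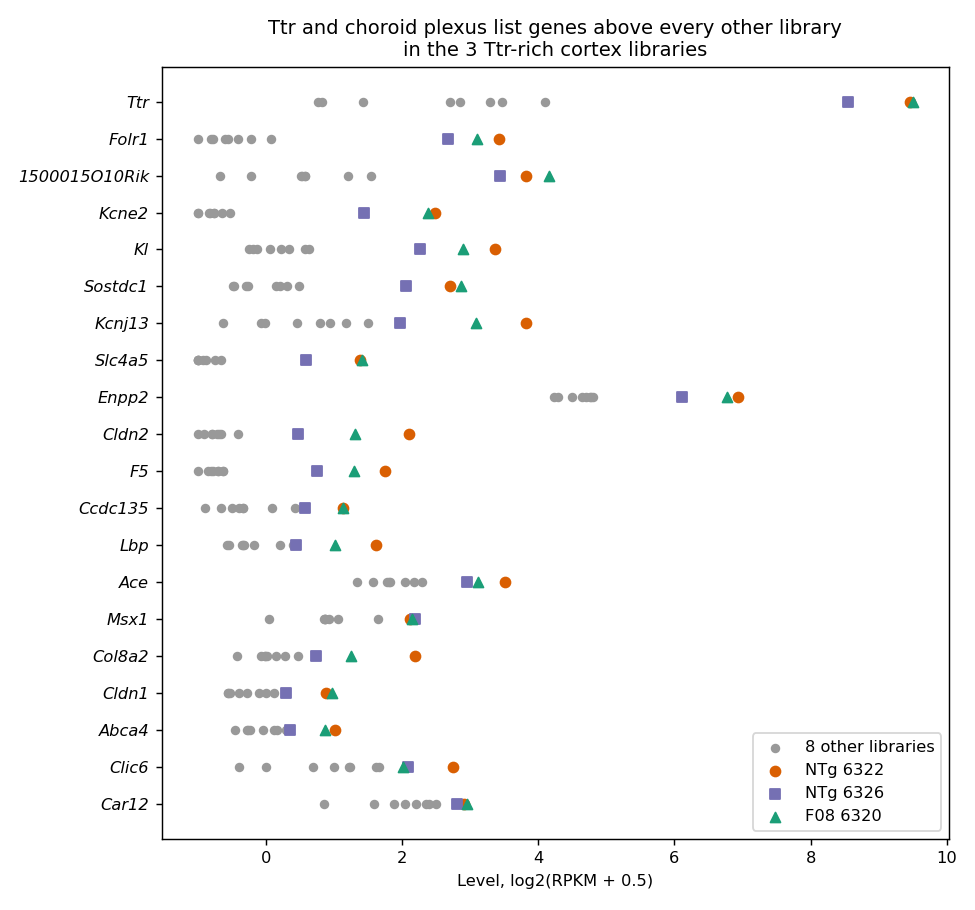
Level of Ttr and of the 19 choroid plexus list genes that were higher in all 3 Ttr-rich cortex libraries than in any other, in log2(RPKM + 0.5); each point is 1 library, grey for the 8 others. NTg 6326 (squares) is the lowest of the 3 for most genes, and for Lbp, Abca4 and Ccdc135 the 2 classes nearly touch.

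Of the transporters and channels, 7 of the 15 kept members lay above every other library, and the list median was 1.00. Folr1, the folate receptor that moves folate across the epithelium, stood at 10.2 RPKM in NTg 6322, 5.86 in NTg 6326 and 8.11 in F08 6320. In the other 8 libraries it ran from 0 through a median of 0.172 to 0.553, so the classes were far apart (log2 ratio 3.68). Kcne2, a subunit that sets the gating of potassium channels at the apical membrane, stood at 5.09, 2.22 and 4.74 RPKM in the same order, against 0 to 0.196 with a median of 0.0801 elsewhere. It was close to undetected outside the 3 libraries. Kcnj13, an inward rectifier potassium channel, stood at 13.6, 3.41 and 7.97 RPKM against 0.145 to 2.33 (median 1.05). Slc4a5, a sodium bicarbonate cotransporter, stood at 2.12, 1.01 and 2.17 RPKM and at most 0.130 in the others. Abca4, a lipid transporter known from photoreceptors, Car12, a carbonic anhydrase, and Clic6, a chloride channel family protein, were above every other library. Their ratios of medians were under 2-fold with 0.5 RPKM added, which understates the difference at low levels. Abca4 had the narrowest gap of these, with 0.778 RPKM in NTg 6326 against at most 0.725 in the others, while Clic6 stood at 6.19, 3.77 and 3.54 RPKM against 0.264 to 2.67. Trpv4, an osmosensitive cation channel, and Aqp1, the water channel of the apical membrane, had log2 ratios of 1.63 and 1.48 but overlapped. Trpv4 in NTg 6326 (0.639 RPKM) lay under F112 6324 (0.691), and Aqp1 in NTg 6326 (1.60) lay under NTg 6323 (2.37). Slc4a10, a bicarbonate transporter that cortical neurons also express, stood at 26.0, 20.3 and 25.7 RPKM against 19.9 to 25.0 and did not set the 3 apart.

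Of the secreted and cell surface list 6 of 14 kept members were above every other library (list median 0.44). Enpp2, which encodes autotaxin, the enzyme that makes lysophosphatidic acid, was the most abundant of them, at 122 RPKM in NTg 6322, 68.8 in NTg 6326 and 109 in F08 6320. The other 8 libraries stayed between 18.2 and 27.5 RPKM (median 25.0), a narrow band well under all 3 (log2 ratio 2.10). Kl, the klotho co-receptor for fibroblast growth factor 23, stood at 9.76, 4.30 and 6.98 RPKM against 0.343 to 1.05 (median 0.609). Sostdc1, a secreted antagonist of BMP and Wnt ligands, stood at 6.01, 3.65 and 6.77 RPKM against 0.217 to 0.912. 1500015O10Rik, named Ecrg4 in RefSeq, encodes a secreted peptide precursor and stood at 13.6, 10.4 and 17.3 RPKM against 0.128 to 2.41. F5, coagulation factor V, and Lbp, which binds bacterial lipopolysaccharide, were also above every other library, with log2 ratios of 2.04 and 1.34. Igf2 and Igfbp2, a growth factor and a binding protein that meninges and choroid plexus stroma make too, were not separated. Igf2 stood at 25.2, 10.7 and 17.7 RPKM against 9.04 to 20.1, so that NTg 6326 lay inside the range of the others.

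Of the epithelial structure genes 3 of 15 kept members were above every other library, with a list median of 0.58. Cldn2, the claudin that makes the paracellular route leaky to cations, stood at 3.80, 0.889 and 1.97 RPKM against 0 to 0.249 (log2 ratio 2.06). Cldn1, a sealing claudin, and Col8a2, a short-chain collagen, had log2 ratios of 1.22 and 1.25. Krt8 and Krt18, keratins of simple epithelia, were not separated. Krt8 stood at 0.311 RPKM in NTg 6322, 0.209 in NTg 6326 and 5.71 in F08 6320, while NTg 6327, NTg 6323 and F112 6324, all low in Ttr, held 6.03, 3.87 and 2.61. Receptors and regulators held 3 of 7 kept members above every other library, and the list median was 1.22. Ace, the angiotensin-converting enzyme, stood at 10.9, 7.24 and 8.21 RPKM against 2.02 to 4.43. Msx1, a homeobox factor, had nearly equal levels in the 3 libraries, 3.83, 4.07 and 3.91 RPKM, against 0.528 to 2.62. Ccdc135 (Drc7 in RefSeq), a protein of motile cilia, was the third. Otx2, the homeobox factor needed for choroid plexus identity, stood at 2.32, 0.505 and 1.48 RPKM, and NTg 6326 lay just under the highest of the others, 0.547. Htr2c, the serotonin 2C receptor, which is abundant in choroid plexus and also made by neurons, was at 7.61, 7.66 and 7.64 RPKM, inside the 3.30 to 13.9 of the others. Tmem72 and Steap1, 2 further choroid list genes, failed the mean of 0.5 RPKM: Tmem72 stood at 2.18, 0.757 and 1.79 RPKM against at most 0.144, and Steap1 at 2.21, 0.456 and 1.39 against at most 0.195.

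The 2 genes outside the choroid lists that passed both marks were Mfrp and Rdh5. Mfrp, a frizzled-related membrane protein of the ciliary body and retinal pigment epithelium, stood at 2.93, 0.795 and 2.05 RPKM against 0.117 to 0.285 (log2 ratio 1.90). Mfrp passed the filter of 0.5 RPKM only through the Ttr-rich libraries, so it had to differ. Mfrp reads may not be separable from those of C1qtnf5, which is transcribed from the same locus, since the sources used here do not say how reads were assigned. Rdh5, a retinol dehydrogenase of the visual cycle, stood at 6.75, 2.91 and 4.79 RPKM against 1.13 to 1.84 (log2 ratio 1.40). It was the 1 member of the 14 kept genes of retinol and thyroid hormone handling above every other library; that list had a median of -0.04. Rbp4, the plasma retinol carrier that binds Ttr, stood at 8.19, 8.39 and 7.12 RPKM, and Stra6, its receptor, at 2.61, 1.05 and 1.90, both overlapping the other 8.

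Promoter windows, from 250 bases before to 50 after a start, were read from RefSeq (GRCm38.p6) for 14 of the 19 choroid genes, because these genes were high together in the same 3 libraries. Otx2 is known to bind TAATCC. Those 6 letters, searched on both strands, occurred in the windows of 2 of the 14 genes, Abca4 and Ace, and in those of 8.14% of all 27025 genes with a window (7.06% of 32851 windows). Printed first are the windows of Kl (chr5:150952357-150952656, plus strand) and Kcnj13 (chr1:87394680-87394979, minus strand), both at least 2-fold higher by medians and without these letters, then those of Ace (chr11:105967698-105967997, plus strand) and Abca4 (chr3:122044210-122044509, plus strand). Each runs 5′ to 3′ along its gene, and capitals mark the letters TAATCC or, read on the opposite strand, GGATTA.
Kl: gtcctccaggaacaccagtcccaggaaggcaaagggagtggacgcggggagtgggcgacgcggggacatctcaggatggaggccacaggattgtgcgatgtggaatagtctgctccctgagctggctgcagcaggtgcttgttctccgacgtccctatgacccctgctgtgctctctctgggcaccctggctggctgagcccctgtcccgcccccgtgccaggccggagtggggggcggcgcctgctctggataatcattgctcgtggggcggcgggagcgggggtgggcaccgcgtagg
Kcnj13: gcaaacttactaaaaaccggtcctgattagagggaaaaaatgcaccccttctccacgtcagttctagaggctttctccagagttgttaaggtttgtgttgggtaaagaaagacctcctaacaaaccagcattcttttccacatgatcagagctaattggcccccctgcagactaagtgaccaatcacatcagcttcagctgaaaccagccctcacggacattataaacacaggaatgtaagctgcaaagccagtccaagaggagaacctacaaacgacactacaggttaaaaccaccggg
Ace: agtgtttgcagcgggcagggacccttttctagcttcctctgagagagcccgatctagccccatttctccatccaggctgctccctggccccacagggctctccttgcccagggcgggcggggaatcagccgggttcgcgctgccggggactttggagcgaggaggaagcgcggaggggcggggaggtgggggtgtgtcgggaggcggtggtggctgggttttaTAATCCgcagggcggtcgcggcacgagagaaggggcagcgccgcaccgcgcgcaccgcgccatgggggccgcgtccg
Abca4: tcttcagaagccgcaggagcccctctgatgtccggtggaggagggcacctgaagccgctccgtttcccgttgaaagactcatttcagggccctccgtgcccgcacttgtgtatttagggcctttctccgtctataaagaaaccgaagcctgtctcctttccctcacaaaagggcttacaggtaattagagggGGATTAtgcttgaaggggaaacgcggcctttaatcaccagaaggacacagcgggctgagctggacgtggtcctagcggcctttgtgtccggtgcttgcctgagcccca
A match here describes letters only, and most of the genes that were high with Ttr had none in these windows. Kcne2 (chr16:92292389-92298129) and Clic6 (chr16:92485736-92541243) lie near each other on the GRCm38 plus strand, yet their values differed: Kcne2 was below 0.2 RPKM in every other library, and Clic6 reached 2.67.

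The genes kept nearly the same order over the 3 libraries. Over 21 genes, the 19 choroid genes with Mfrp and Rdh5, NTg 6322 was highest in 15, F08 6320 in 5, and NTg 6326 lowest in 19. Set against Ttr, the amounts were close: each gene's RPKM above the median of the 8 others, per 100 RPKM of Ttr above theirs, stayed within 2-fold over the 3 libraries for 14 of the 21, and the median ratio of highest to lowest was 1.58. Ccdc135 had the most even values (ratio 1.04). Enpp2 had an excess of 13.9 RPKM per 100 of Ttr in NTg 6322, 11.9 in NTg 6326 and 11.6 in F08 6320. For Sostdc1 it was 0.793, 0.862 and 0.875, and for Slc4a5 0.301, 0.270 and 0.300. Col8a2 and Kcnj13 were the least even, with ratios of 2.81 and 2.80; Kcnj13 went from 0.641 in NTg 6326 through 0.962 in F08 6320 to 1.80 in NTg 6322. These genes were picked as high in the same libraries, so their being high together carries no separate weight.

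**Figure D2:**
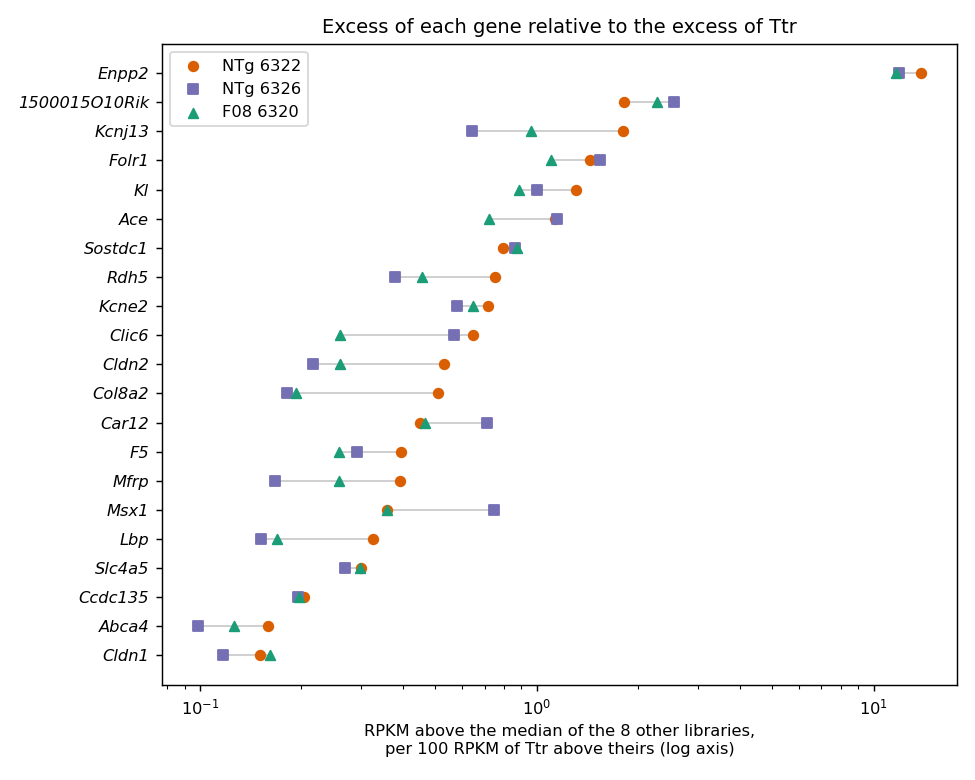
Excess of 21 genes over the median of the 8 other cortex libraries, in RPKM per 100 RPKM of Ttr excess (log axis), in each of the 3 Ttr-rich libraries. Most genes lie within a 2-fold span, while Col8a2, Kcnj13, Clic6, Cldn2, Mfrp, Lbp and Msx1 are spread wider.

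The lists of other tissues and cell types near the ventricle held no gene whose 3 values all lay above the other 8. None of the 16 kept genes of ependyma and motile cilia was above every other library (median -0.02), and Foxj1, the master regulator of motile cilia, stood at 1.87, 1.90 and 2.68 RPKM against 1.08 to 3.10. Ccdc135, a protein of motile cilia that was above every other library, had been placed in a choroid list. The absence of such a gene here depends on that placement. Meningeal fibroblast genes had a median of -0.36, endothelial genes 0.07, pericyte and smooth muscle genes -0.08, blood genes -0.20, microglial genes -0.01, astrocyte genes -0.08 and myelin genes 0.04, and none of these lists had a member whose 3 values all lay above or all below the other 8. The meningeal sum ran from 332 to 813 RPKM in the Ttr-rich libraries, against 437 to 928 in the others.

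**Figure D3:**
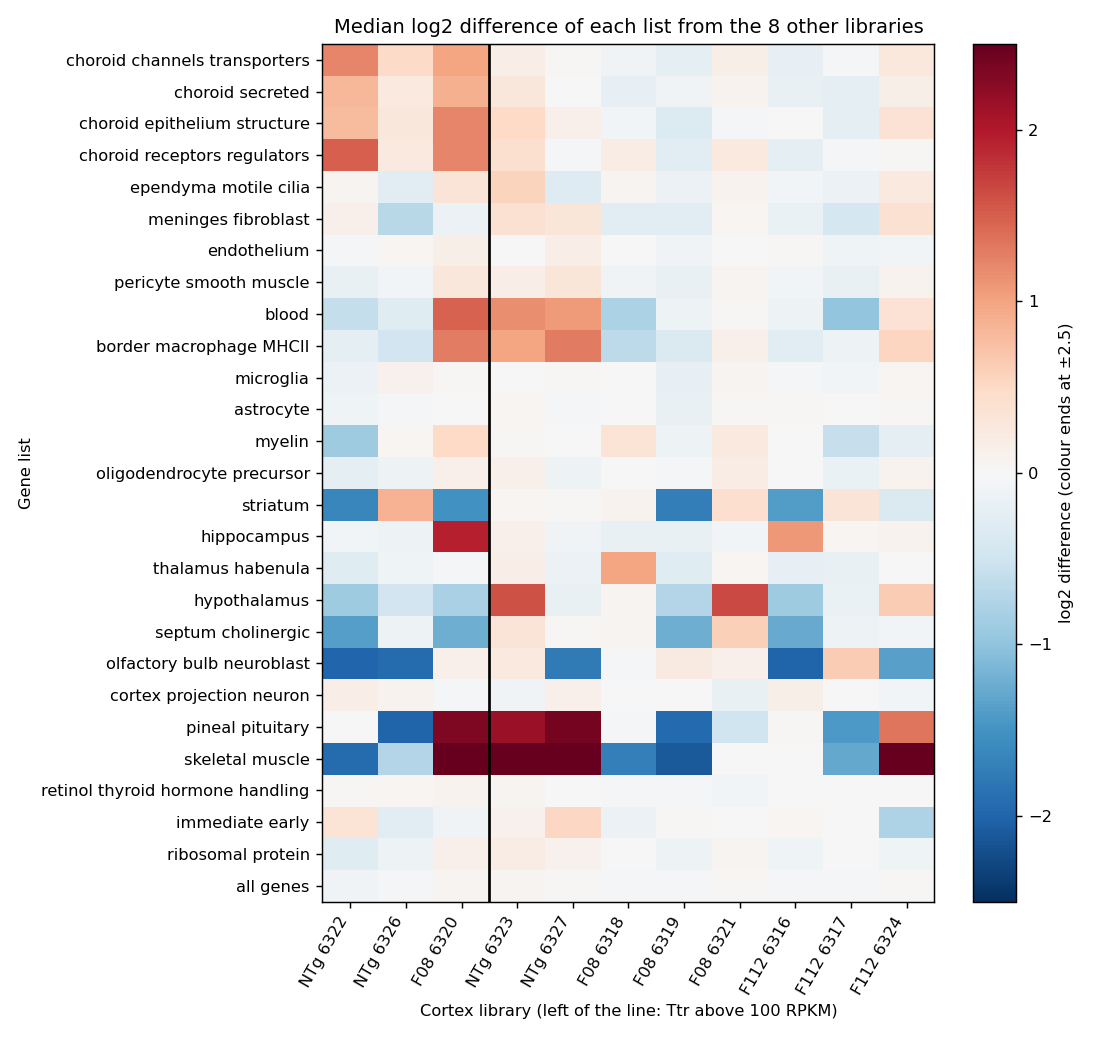
Median log2 difference of each gene list from the 8 other cortex libraries, 1 column per library, with the 3 Ttr-rich libraries left of the line. The 4 choroid lists are above 0 in all 3, but NTg 6323, low in Ttr, exceeds NTg 6326 in 3 of the 4; striatum is blue in NTg 6322 and F08 6320 and red in NTg 6326, and the blood, macrophage and muscle lists are red in F08 6320 and in several libraries low in Ttr.

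The choroid lists themselves did not order all 11 libraries by Ttr. The median log2 difference of the 51 choroid genes from the 8 others was 0.92 in NTg 6322, 1.13 in F08 6320 and 0.25 in NTg 6326, and NTg 6323, with 6.73 RPKM of Ttr, had 0.33. NTg 6323 was above NTg 6326 in the secreted list (0.28 and 0.24), the structure list (0.50 and 0.29) and the receptor list (0.41 and 0.25), but not in transporters and channels (0.18 and 0.49). F112 6324, with 9.35 RPKM of Ttr, had 0.24 over the 51 genes.

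Neighbouring brain regions differed among the 3 libraries themselves. Of all genes 37 (0.267%) were at least 2-fold higher by medians, 22 of them choroid list genes, and 110 (0.793%) at least 2-fold lower, 21 of them among the 24 kept striatum genes. No striatum gene was below every other library, because the 3 fell on both sides. The summed level of striatum genes was 253 RPKM in NTg 6322 and 269 in F08 6320, near the lowest of the others (254 in F08 6319), and 1607 in NTg 6326, the highest of all 11 libraries; the other 8 reached 1155. Drd2, the dopamine D2 receptor, stood at 0.285, 24.1 and 0.998 RPKM against 0.823 to 14.8, and Adora2a, an adenosine receptor of the same neurons, at 2.78, 66.3 and 3.37 against 3.75 to 43.9. The genes with the greatest lead in NTg 6326 over all 10 other libraries were Cd4, Lrrc10b, Gpr6, Gcnt2, Rasd2 and Syndig1l, with Rasd2, a striatal GTPase, at 115 RPKM against at most 67.4 elsewhere. Septal and cholinergic genes had a median of -1.10, hypothalamic genes -0.89 and olfactory bulb or neuroblast genes -1.92, again without a member below every other library.

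F08 6320 held hippocampal genes: their summed level was 50.9 RPKM there, 8.29 in NTg 6322 and 7.23 in NTg 6326, against 6.51 to 27.0 in the others. C1ql2 and Prox1, both known from dentate granule cells, stood at 14.4 and 7.46 RPKM in F08 6320. The next library for both was F112 6316, low in Ttr (1.27 RPKM), with 6.11 and 3.73. The genes with the greatest lead in this library were Snord87, Rpl34-ps1, Iqgap2, C1ql2, Prox1 and Nrp1. In NTg 6322 they were Mir218-1, Mir218-2, Kcnj13, Gpx8, Clic6 and Echdc2, so 2 of its 6 were choroid list genes. Myelin genes summed to 720 RPKM in NTg 6322, lowest of the 11, and to 1945 in F08 6320, the highest.

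Skeletal muscle genes were high in only 1 of the 3 Ttr-rich libraries. Their sum was 8.85 RPKM in NTg 6322, 11.4 in NTg 6326 and 348 in F08 6320, while NTg 6327, NTg 6323 and F112 6324 held 318, 258 and 160. Ckm, the muscle creatine kinase, stood at 82.6 RPKM in F08 6320 and at 71.2 in NTg 6327 but at 0.155 in NTg 6322. These 4 libraries were among the 5 with the most alignments, and border macrophage genes were highest in the same 4.

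Among genes lower in all 3 libraries, no list was prominent and the differences were small. Gprin2, a G protein regulator of neurite outgrowth, stood at 0.0728, 0.413 and 0.178 RPKM against 0.426 to 1.25 (log2 ratio -0.79). Lhfpl5, a tetraspan membrane protein known from inner ear hair cells, had a ratio of -0.62, and Rpl17, a ribosomal protein, stood at 19.9, 22.3 and 20.5 RPKM against 23.9 to 36.8 (ratio -0.47). The other leading genes were 4930539J05Rik, 4930452B06Rik, Coa4, Pycrl, Ano1, Slc35g2 and Ndufab1. Ribosomal protein genes as a list fell on both sides: their median log2 difference from the 8 others was -0.29 in NTg 6322, -0.12 in NTg 6326 and 0.12 in F08 6320.

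**Figure D4:**
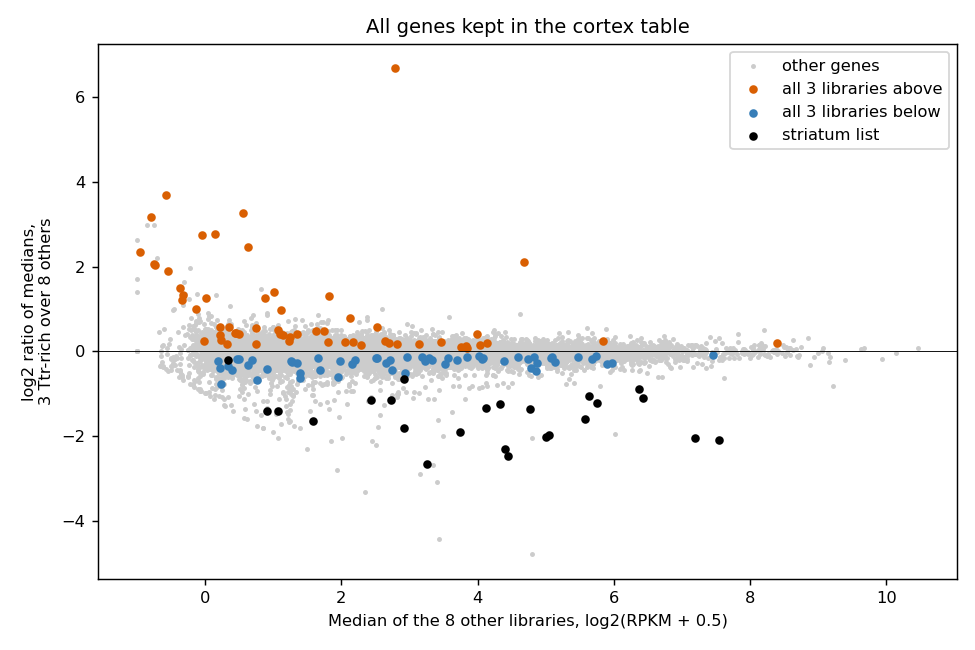
Log2 ratio of medians (3 Ttr-rich over 8 other cortex libraries) against the median level of the 8, in log2(RPKM + 0.5), for the 13865 kept genes. Genes above every other library (orange) reach 6.68 for Ttr, genes below every other library (blue) stay above -1, and striatum genes (black) lie low without being below every other library.

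Splits of the cortex libraries by alignments, genotype and Xist left the median of the 51 choroid genes above 0 on each side, but 3 of the sides rest on 1 Ttr-rich library. Each side uses the same Ttr-rich libraries again, and 15 of the 51 genes were kept only through them. The sign was therefore partly fixed in advance, and the splits carry no separate weight. Within the 5 libraries with the most alignments the choroid median was 0.73 (F08 6320 against 4), and within the other 6 it was 0.96 (2 against 4). Within NTg it was 0.55 (2 against 2) with 37 of 51 genes above 0, where the structure list had only 0.085 with 8 of 15 above 0, and within F08 1.20 (1 against 3) with 48 of 51. Within the 6 libraries with Xist above 20 RPKM it was 1.19 (1 against 5), and within the other 5 it was 0.43 (2 against 3). The striatum median, in contrast, was -1.76 in the 5 deepest libraries and 0.20 in the other 6. Skeletal muscle had -5.09 within NTg and 5.39 within F08.

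The spinal cord of the same mice, which played no part in the choice, held almost no Ttr. The 3 mice with Ttr-rich cortex had 0 (NTg 6322), 0.0617 (NTg 6326) and 0.0262 RPKM (F08 6320) there, and the other 8 ran from 0 through a median of 0.0576 to 0.697 in F112 6317. The means were 0.0293 and 0.132 RPKM, and an exact two-sided permutation test over all arrangements gave p = 0.339 (n = 3 and 8). Levels this near 0 left the test little to detect, and the higher mean rests largely on F112 6317. No conclusion is drawn from it. By limma with genotype as a covariate, 0 of 13839 genes (0%) passed an adjusted p under 0.05, and 414 had an unadjusted p under 0.05, 1.03% of all genes higher and 1.97% lower. Of the 60 choroid list names, 32 were kept in the cord table, with a median difference of -0.02 (range -0.18 to 0.28; median SE 0.078) beside -0.01 for all genes, and none was called. Enpp2, abundant in cord, where oligodendrocytes express it, stood at 114, 129 and 120 RPKM in the 3 mice and between 117 and 130 in the other libraries (log2 difference -0.02 ± 0.05 SE; limma adjusted p = 1.00). Kl stood at 0.895, 0.773 and 0.768 RPKM against 0.655 to 0.957 (-0.03 ± 0.08 SE; limma adjusted p = 1.00). The genes with the smallest unadjusted p were Pcdhga5, Ly86, LOC102634401, Pim2 and Fcgr3 on the lower side and Gm19345, Tfpi, Trmt5, Xpa and Nabp1 on the higher side. Ly86 and Fcgr3 are known from microglia and macrophages; Fcgr3 differed by -0.30 ± 0.07 SE and Ly86 by -0.25 ± 0.05 SE, both with a limma adjusted p of 1.00.

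Within the cord, Ttr stood out in 1 library, at a level too low to tell whether choroid genes went with it. F112 6317 held 0.697 RPKM of Ttr and the next library 0.0984. Folr1, Kl and Kcnj13 there lay inside the range of the other cord libraries (0.216, 0.795 and 0.0234 RPKM). In the Ttr-rich cortex libraries their excess per 100 RPKM of Ttr was 1.10 to 1.54, 0.886 to 1.31 and 0.641 to 1.80 RPKM. At such rates 0.697 RPKM of Ttr would add almost nothing, so these values cannot show whether the genes followed Ttr. Transcripts of liver proteins, chosen after their values were seen, were also in the F112 6317 library. Alb, serum albumin, stood at 1.96 RPKM there and was listed at 0 in 10 of the other 11 libraries. Fabp1, the liver fatty acid binding protein, stood at 0.641 RPKM and Fgb, fibrinogen beta, at 0.180, each listed at 0 in all 11 others. Liver is the other main source of Ttr in the body; where these reads came from was not tested. In a limma slope on log2 Ttr over the 12 cord libraries, 0 of 13839 genes (0%) passed, with 530 at an unadjusted p under 0.05, 1.74% of genes with a positive and 2.09% with a negative slope. Of 32 choroid genes 1 was positive and 4 were negative at that level (median slope -0.01). Apoa2, a liver apolipoprotein, had the smallest p (slope 1.03 ± 0.17 SE; limma adjusted p = 0.253), and with no filter on mean level 82 genes passed, all 82 highest in F112 6317 and 81 with a mean under 0.5 RPKM. That slope rests on a single library.

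Below the threshold, Ttr still varied from 1.20 to 16.6 RPKM in the 8 other cortex libraries, and these differences were not used by the rule. The limma slope on log2(Ttr + 0.5) passed an adjusted p under 0.05 for 0 of 13864 genes (0%), while 2518 had an unadjusted p under 0.05, 13.8% of genes with a positive and 4.31% with a negative slope. Choroid genes had a median slope of 0.15, where all genes had 0.03. Of the 51, 18 had an unadjusted p under 0.05 and a positive slope, and 1 a negative one. Among the 51, 15 averaged under 0.5 RPKM in these 8 libraries, so the 0.5 RPKM added before the logarithm flattened their slopes. Clic6 had a slope of 0.50 ± 0.11 SE (limma adjusted p = 0.0983), Kcnj13 0.40 ± 0.14 SE (adjusted p = 0.193) and Kl 0.21 ± 0.08 SE (adjusted p = 0.217). Folr1 and Enpp2, 2 of the genes that set the Ttr-rich libraries apart most clearly, had slopes of 0.07 ± 0.11 SE and -0.03 ± 0.06 SE (limma adjusted p = 0.744 and 0.795). Folr1 lay near or under the 0.5 RPKM added before the logarithm in these 8 libraries. Enpp2 had an excess of 11.6 to 13.9 RPKM per 100 RPKM of Ttr in the Ttr-rich libraries. At that rate little Enpp2 would be added at 16.6 RPKM of Ttr or less. The slopes of Folr1 and Enpp2 therefore cannot show whether either gene followed Ttr. The same limit holds for the genes with positive slopes. In the Ttr-rich libraries Clic6 had an excess of 0.260 to 0.647 RPKM per 100 of Ttr, Kcnj13 0.641 to 1.80 and Kl 0.886 to 1.31. All 3 spread more widely over the 8 libraries than such rates would add at 16.6 RPKM of Ttr or less. What their positive slopes reflect was not tested.

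Genes of deep forebrain nuclei had steeper slopes on Ttr in these 8 libraries than the choroid genes did, with no test of that difference. Among the choroid genes, 15 averaged under 0.5 RPKM in these 8 libraries and were kept only through the Ttr-rich ones. The 0.5 RPKM added before the logarithm flattens the slopes of such genes. The difference in slopes may therefore come partly from the filter and the pseudocount. Of 24 striatum genes 22 had an unadjusted p under 0.05 and a positive slope (median 0.51), where 13.8% of all genes did. Of 10 septal and cholinergic genes 7 did (median 0.50). Members of a list moved together, so they are not separate results. F08 6319 and F112 6316 had the least Ttr and the lowest striatum sums (254 and 313 RPKM) of the 8. Without them Pearson's r of log2 Ttr with the striatum sum went from 0.728 to -0.19, and with the septal sum from 0.863 to 0.632. The smallest p values belonged to Isl1, a homeobox factor of striatal and cholinergic neurons (0.69 ± 0.09 SE), Ache, acetylcholinesterase (0.28 ± 0.04 SE), Drd3, the dopamine D3 receptor (0.57 ± 0.08 SE), Gpr149, an orphan receptor (0.61 ± 0.09 SE), and Ngfr, a neurotrophin receptor of basal forebrain neurons (0.64 ± 0.09 SE), each with a limma adjusted p of 0.0506. On the negative side were Dlgap1, Glt8d2, Grp, Ldha and Atp6v0c, of which Grp, gastrin-releasing peptide, had -0.70 ± 0.12 SE (limma adjusted p = 0.0731). Without F112 6317, where striatum genes were high (1134 RPKM summed) and Ttr low (2.18), 167 of 13864 genes passed, 118 of them positive. Among the 167 were 20 of 24 striatum, 6 of 10 septal and 2 of 51 choroid genes (Clic6 and Bmp6, the latter named after its value was seen). Without NTg 6323, 3 genes passed, Dlk1, Gpx3 and Peg10, named after their values were seen. In the 3 Ttr-rich libraries the striatum genes did not follow Ttr, being low in both libraries with the most of it.

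Depth moved with Ttr among these 8 libraries: Ttr ran from 6.73 to 16.6 RPKM in the 4 that belong to the 5 deepest and from 1.20 to 6.03 in the other 4. With log2 alignments as a covariate, 0 genes (0%) passed by limma, and the unadjusted share was 4.23% positive and 3.01% negative. Choroid genes then had 6 of 51 with an unadjusted p under 0.05 (median slope 0.08), striatum genes 22 of 24 (median 0.69), septal genes 7 of 10 and muscle genes 0 of 9, where they had 5 of 9 before. Over the 8 libraries the summed choroid level had Pearson's r = 0.811 with log2 Ttr (exact permutation p = 0.0228, adjusted 0.0941 over 9 relations) and Spearman's rho = 0.786 (exact permutation p = 0.0279, adjusted 0.126). It fell to r = 0.617 without F08 6319 and F112 6316, the 2 libraries farthest from the median of Ttr, and alignments had r = 0.704 with Ttr (exact permutation p = 0.0709, adjusted 0.106). The choroid sum ran from 164 to 252 RPKM in these 8 libraries. It was 287 to 455 RPKM in the Ttr-rich libraries, where Ttr was 375 to 725 RPKM. By that measure, Ttr of 16.6 RPKM or less would bring little of the spread among the 8. The r therefore cannot show that choroid plexus tissue moved with Ttr there. The meningeal sum had nearly the same relation to Ttr as the choroid sum, with r = 0.725 (exact permutation p = 0.0393, adjusted 0.0941), rho = 0.738 (exact permutation p = 0.0458, adjusted 0.138) and r = 0.608 without the 2. Skeletal muscle had r = 0.588 (exact permutation p = 0.134, adjusted 0.172) and rho = 0.667 (exact permutation p = 0.0831, adjusted 0.144). For striatum r was 0.728 (exact permutation p = 0.0418, adjusted 0.0941; rho = 0.595, exact permutation p = 0.132) and -0.19 without the same 2 libraries, so that relation rests on them. Only the septal sum passed after adjustment for r (0.863, exact permutation p = 0.00422, adjusted 0.0379), but not for rho (0.786, exact permutation p = 0.0279, adjusted 0.126), and r was 0.632 without the 2. The part of depth in these slopes was not separately tested beyond the covariate.

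**Figure D5:**
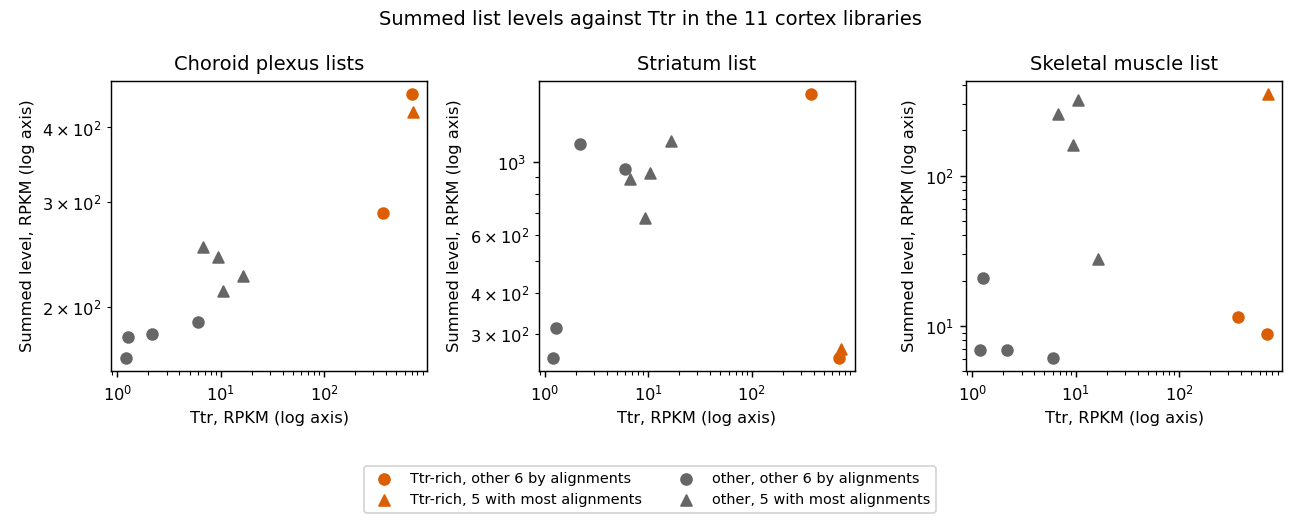
Summed level of the choroid plexus, striatum and skeletal muscle lists against Ttr in the 11 cortex libraries (both axes log, RPKM); orange points are the 3 Ttr-rich libraries and triangles the 5 libraries with the most alignments. The choroid sum is 287 to 455 RPKM in the Ttr-rich libraries and 164 to 252 in the others, and the striatum and muscle sums of the Ttr-rich libraries lie at both ends.

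The genotype comparisons, which share the NTg libraries, are given with and without the 3 Ttr-rich libraries. For Ttr and for genes picked as high in those libraries, a smaller difference without them follows from the choice and is no finding. F112 minus NTg in cortex gave Ttr -4.23 ± 1.98 SE (limma adjusted p = 1.00), and F08 minus NTg gave -1.81 ± 1.84 SE (adjusted p = 1.00). Choroid genes had a median of -0.55 for F112 (all genes -0.02), with 48 of 51 below 0 and 0 called. At an unadjusted p under 0.05, 5 were lower and 0 higher, where 1.27% of all genes were lower and 0.7% higher. Without the 3 Ttr-rich libraries the median was -0.18 (all genes -0.08), and 8 of 51 had a negative value with an unadjusted p under 0.05, where 6.51% of all genes were lower and 1.05% higher. Folr1 went from -1.89 ± 1.08 SE to -0.13 ± 0.35 SE (limma adjusted p = 1.00 and 0.956), Kl from -1.38 ± 0.83 SE to -0.12 ± 0.32 SE (adjusted p = 1.00 and 0.959) and Ttr to -1.31 ± 0.90 SE (adjusted p = 0.794). For F08 the choroid median was -0.36 with all libraries and -0.29 without the 3. At an unadjusted p under 0.05, 0 of 51 were lower with all libraries, where 1.02% of all genes were lower and 1.59% higher, and 7 were lower without the 3, where 6.34% of all genes were lower and 0.649% higher. The 1 gene called for F112 (0.00721% of genes), 3110043O21Rik, had 1.44 ± 0.13 SE (limma adjusted p = 0.00158). Without the 3 libraries it had 1.38 ± 0.17 SE and an adjusted p of 0.134 by limma, with 2 NTg libraries left. For F08, 0 genes (0%) were called with all libraries and 1 without the 3, the muscle and heart cytochrome oxidase subunit Cox6a2, which was lower and is named after its value was seen. Cox6a2 stood at 9.79 and 10.9 RPKM in the 2 NTg libraries then left, both high in muscle genes, and at 4.42 and 3.42 in the NTg libraries rich in Ttr.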

How the data were processed

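Each tissue came as 1 deposited table of RPKM values per gene, made by the authors, with 1 column per library and the number of alignments. Per the submitters' processing notes TopHat2 2.0.8b and Partek were used and the builds mm9 and mm10 are named; which served which table, and how reads were assigned, is not given in these sources. Per the labels' protocols, brain libraries followed Ion Torrent and cord libraries Illumina methods, so the tissues were fitted apart. Genes that averaged 0.5 RPKM or more in a tissue were kept, 13865 in cortex and 13839 in spinal cord.

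The cortex classes were described by medians, ranges and gene counts. Fits used limma 3.58.1 in R 4.3.3 (empirical Bayes with trend) on log2(RPKM + 0.5), two-sided, with Benjamini-Hochberg adjustment over all genes of a tissue and calls under 0.05; they were tested on simulated data. Single values had exact permutation tests. Slopes are per unit of log2(Ttr + 0.5), with Ttr left out. Read counts were not analysed here, and the number of libraries limits the precision. Nothing says that libraries of a genotype came from separate litters, so p-values measure the spread between these mice.

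Members, lists and tests were chosen with earlier results of these data known. Of 410 listed names in 26 lists, 400 were in the cortex table, 1 through a RefSeq synonym. Named genes were Ttr, the 15 largest and 10 smallest ratios among genes outside the range of the other 8 libraries, up to 4 per list, the 6 with the greatest lead in each Ttr-rich library, up to 10 called or 5 smallest-p genes per direction of a fit, and any choroid list member; Foxj1, Rbp4, Stra6 and Xist were added for their roles after their values were seen, and other exceptions are marked. Positions came from GENCODE M21 (GRCm38). Alternatives changed scaling, pseudocount, filter, covariates, threshold and libraries.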

Additional observations from a re-analysis of the deposited data

Results flagged for a closer look

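A sample was set apart where its gap to the nearest other of its group exceeded Dixon's 95% critical value, in groups of 4 libraries. Of 47 groups tested, 9 had such a library, and chance gives about 1 in 20 for a single test. Many groups held the same libraries with a different gene list, so the tests were not independent. The share of groups can therefore not be set against that rate. Cortex Ttr and the choroid lists were not tested, since Ttr chose the libraries.

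Of the Ttr-rich libraries, F08 6320 stood apart from the 3 other F08 cortex libraries in the summed levels of hippocampal genes (50.9 RPKM), pineal and pituitary genes (42.8 RPKM) and skeletal muscle genes (348 RPKM). NTg 6322 stood apart from the other NTg libraries by its low myelin sum of 720 RPKM.

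Of the libraries low in Ttr, NTg 6323 stood apart in the sums of hypothalamic genes (147 RPKM), olfactory bulb and neuroblast genes (128 RPKM) and cortical projection neuron genes (429 RPKM, low), and F08 6318 in thalamus and habenula genes (68.2 RPKM). In the spinal cord, F112 6317 stood apart in Ttr (0.697 RPKM).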

How the results depend on the processing

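No paired analysis was possible because each cortex library is a different mouse, the mouse numbers are shared only between tissues, and the tissues were not set against each other. Counts outside the range of the other class depend on how many libraries are compared. Genes above every other library numbered 93 with quantile normalization, 16 at a mean of at least 5 RPKM, 21 at a Ttr threshold of 15 RPKM, and 66 to 240 leaving out 1 library. They numbered 3509 and 837 within the 5 deepest and the other 6 libraries, 1389 within NTg, 5415 within F08, and 1567 and 933 within the 6 libraries with Xist above 20 RPKM and the other 5, splits chosen after seeing the data. Genes below every other library numbered 34, 22 and 63 to 660 for the filter, the threshold and leaving out 1, and 2486, 1090, 5214, 2265, 3654 and 1234 in the splits. Those also at least 2-fold higher numbered 2, 3 and 19 to 31, and 97, 33, 385 (F08) and 52 (Xist above 20 RPKM) in the splits. The choroid median was 0.17 at a mean of at least 5 RPKM, which few choroid genes reach, 0.70 to 1.11 leaving out 1, and 0.55, 1.20, 1.19 and 0.43 within NTg, F08 and the Xist classes.

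Leaving out 1 library gave 240, 226 and 159 genes above every other without NTg 6326, NTg 6322 and F08 6320. Genes below every other then numbered 264, 138 and 660, and were 95, 100 and 100 without F08 6319, F112 6316 and F112 6324. The cord difference in Ttr ran from -0.12 to -0.02 RPKM, and calls from 0 to 0 for the cord of the 3 mice, 0 to 167 for the cortex slope (3 without NTg 6323, 167 without F112 6317), 0 to 1 for the cord slope, 1 to 1 for F112 and 0 to 0 for F08. Other changed counts were 82 for the cord slope with no filter, 0 for F112 and 1 for F08 without the Ttr-rich libraries, and 1 for F08 with median-of-ratios scaling, which was 3110043O21Rik. In the cord slope, leaving out the 2 libraries farthest in Ttr turned AW495222 to -0.065, Dnajb14 to 0.20, Atf7 to 0.37, Megf9 to 0.028 and Alox5ap to 0.13; leaving out F112 6317 turned AW495222 to -0.13, Dnajb14 to 0.18, Atf7 to 0.13 and Alox5ap to 0.32, within ranges over all single leave-outs of -0.13 to 0.34, -0.38 to 0.18, -0.35 to 0.13 and -0.57 to 0.32. The cause was not tested.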

Other observations

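Muscle, blood and border macrophage genes differed between cortex libraries low in Ttr as well: the muscle sum was 6.10 RPKM in F08 6318 and 318 in NTg 6327. The hypothalamus sum was 147 RPKM in NTg 6323 and 133 in F08 6321, and at most 45.4 in the other 9 libraries. In the cord of F112 6317, Hamp, the liver hormone hepcidin, stood at 0.720 RPKM and Mup3, a major urinary protein, at 0.313, against at most 0.0762 and 0.0378 in the other 11 libraries; both were chosen after their values were seen.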
